A study of Homo sapiens with 2 samples.

Results

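Mitochondria import nearly all of their proteins unfolded and must fold them, clear those that fail and cut others to switch them on or off. The matrix chaperones HSPD1 and HSPE1 (the HSP60 and HSP10 chaperonin), HSPA9 (mitochondrial HSP70, mortalin) and TRAP1 (mitochondrial HSP90) do the folding. LONP1 and the CLPX-CLPP complex degrade matrix proteins, AFG3L2 and YME1L1 work at the matrix and intermembrane faces of the inner membrane, and OMA1 is a stress-activated inner membrane protease. The members examined were these 10 genes, taken by symbol, of 25268 symbols listed in each table. All 10 had a mean of at least 1 FPKM over the libraries, as did 11957 genes in all after short RNA genes were left out, and these are called the tested genes. FPKM is the number of sequenced fragments divided by transcript length and library size. Levels of different genes can thus be set side by side, but only roughly.

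The cells were C4-2B MDVR, an established, castration-resistant prostate cancer cell line descended from LNCaP that withstands enzalutamide, an androgen receptor antagonist. It is 1 line, so nothing here speaks of other lines. Both groups were kept in 20 µM enzalutamide. One was given 20 µM Indocin (indomethacin, a cyclooxygenase inhibitor) for 3 days and the other the vehicle DMSO for 3 days, with 1 mRNA library per group. In what follows, "with DMSO" and "with Indocin" name the library of each group. Because each group was 1 library, differences have no error and no test or p-value could be given. The number of reads per library was unknown. The summed FPKM was 617510 with DMSO and 583096 with Indocin, and tested genes had a median FPKM of 12.5 and 12.3. All 8 markers of prostate luminal cells stood between 58.1 and 412.7 FPKM, and 9 of 11 markers of other cells were under 1 FPKM in both libraries, the exceptions being CD68 (6.51 and 5.86 FPKM) and COL1A1 (4.54 and 4.80 FPKM). The marker sums were 1487 and 1302 FPKM for luminal cells, and 11.9 and 11.7 FPKM for other cells. In bulk RNA, fewer cells of a type and less RNA per cell cannot be told apart.

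RefSeq promoter sequences, which run from 250 bases before to 50 bases after a gene start, were matched for 8 members by symbol, in 10 windows on GRCh38.p14. CLPP and YME1L1 had no entry. The FPKM tables were made on another build, so these coordinates belong to the sequences alone. HSPD1 and HSPE1 lie head to head, and the whole stretch between their divergent starts was 104 bases. It is shown because the members of this pair, which act together as 1 folding machine, had different ratios. LONP1 and HSPA9 are shown because they had the highest ratios. Capitals mark the E-box CACGTG, a motif of basic helix-loop-helix factors that reads the same on both strands. The gap is given on the HSPE1 strand (plus, chr2:197500275-197500378), and the other sequences on the minus strand, 250 bases up to the start of LONP1 (chr19:5720147-5720396) and of HSPA9 (chr5:138575402-138575651).
HSPD1-HSPE1 gap: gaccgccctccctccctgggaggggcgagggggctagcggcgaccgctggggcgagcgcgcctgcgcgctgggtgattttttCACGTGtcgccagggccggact
LONP1: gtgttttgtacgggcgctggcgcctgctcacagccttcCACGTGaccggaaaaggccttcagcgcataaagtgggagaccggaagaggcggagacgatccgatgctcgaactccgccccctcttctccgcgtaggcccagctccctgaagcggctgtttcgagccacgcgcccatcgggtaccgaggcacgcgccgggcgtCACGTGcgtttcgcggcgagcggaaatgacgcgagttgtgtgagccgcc
HSPA9: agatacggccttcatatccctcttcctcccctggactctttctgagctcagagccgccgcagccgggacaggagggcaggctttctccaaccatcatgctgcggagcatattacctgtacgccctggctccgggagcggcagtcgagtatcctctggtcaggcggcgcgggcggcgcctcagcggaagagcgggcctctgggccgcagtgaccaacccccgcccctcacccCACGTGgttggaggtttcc

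The E-box began 22 bases before the HSPE1 start, and the same site began 88 bases before the upstream HSPD1 start, read from the other strand. LONP1 had E-boxes that began 212 and 49 bases before its downstream start and none at its other annotated start, and HSPA9 had 1 that began 19 bases before its start. The motif was in 4 of the 10 member windows, of which those of HSPD1 and HSPE1 share 1 site, and in 7.26% of 35116 RefSeq windows of the same length. Among these 4 members the log2 ratio of FPKM + 1 ran from -0.27 for HSPE1 and 0.00 for HSPD1 to 0.42 for HSPA9 and 0.53 for LONP1. AFG3L2 (-0.18), TRAP1 (-0.09), CLPX (-0.01) and OMA1 (0.21) had a window without the motif. A link between the motif and the ratios was not tested. The share over all windows was not matched for G and C bases, which made up 63.7% to 76.3% of the member windows. The C/EBP-ATF element TGATGNAA, on either strand, was in no member's window and in 3.62% of all windows. The CCAAT box was in 1 member's window, that of CLPX, and in 34.6% of all windows.

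A second HSPD1 window, at a start further into the gene, held the heat shock elements TTCNNGAA and GAANNTTC, recognised by heat shock factors. They began 245, 240 and 235 bases before that start and overlapped each other, as the capitals show in the first 30 bases of the window (minus strand, chr2:197500061-197500090).
HSPD1: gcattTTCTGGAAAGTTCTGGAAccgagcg
Among all windows 7.74% held TTCNNGAA and 6.77% held GAANNTTC. HSPA9 was the other member with TTCNNGAA, 4 bases before its start and running across it.

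The question was how gene expression in these resistant cells differed after Indocin. Among the 10 members LONP1 and HSPA9 stood highest by ratio and HSPE1 lowest. The log2 ratio is log2((Indocin FPKM + 1)/(DMSO FPKM + 1)), which is close to the FPKM ratio at the members' levels. Of the 10, 2 were 1.2-fold or more higher with Indocin and 1 was 1.2-fold or more lower, where 9.91% of tested genes were as much higher and 11.7% as much lower. None was 1.5-fold higher or lower, against 2.19% and 0.744% of tested genes. These shares of 10 genes are near the background, so the counts show no shift of the members as a group. The median of the members was 0.00 and that of all tested genes -0.03. The members together summed to 1731 FPKM with DMSO and 1726 FPKM with Indocin.

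**Figure D1:**
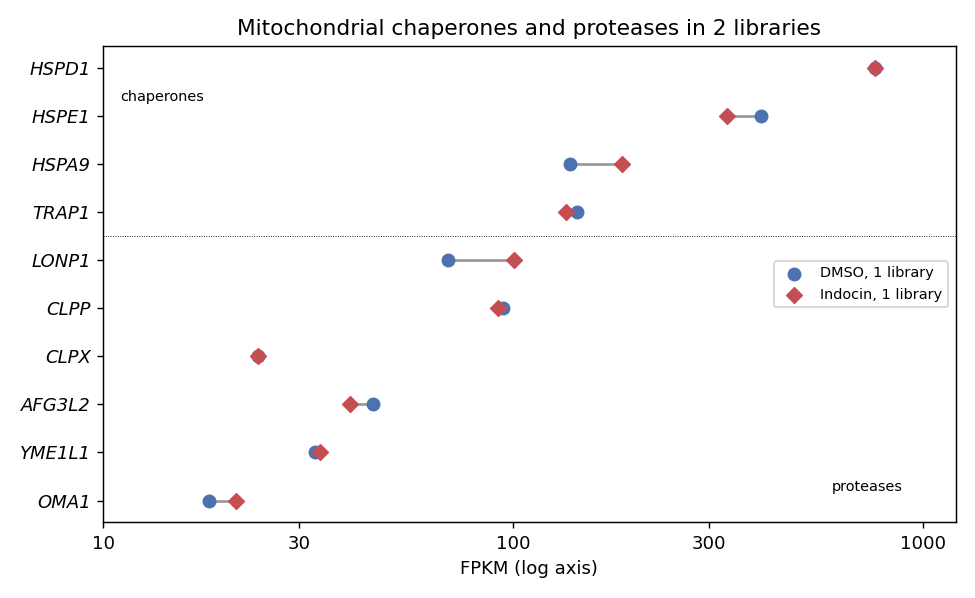
FPKM (log axis) of each member in the DMSO library (circles) and the Indocin library (diamonds), chaperones above the dotted line and proteases below it, 1 library per group. LONP1 and HSPA9 lie further right in the Indocin library, HSPE1 and AFG3L2 further left, and HSPD1 (763.8 and 763.2 FPKM) and CLPX (23.9 and 23.8 FPKM) nearly coincide.

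Among the chaperones, HSPD1, which forms the HSP60 folding chamber, had the highest level of the 10 members, 763.8 FPKM with DMSO and 763.2 FPKM with Indocin (log2 ratio 0.00). Only 0.870% of tested genes had a higher FPKM than HSPD1 with DMSO and 0.836% with Indocin. HSPE1, the HSP10 lid of that chamber, stood at 402.1 FPKM with DMSO and 332.6 FPKM with Indocin (-0.27), the lowest ratio of the members. The mRNA proportion of the chaperonin pair thus differed: HSPE1 FPKM was 0.526 of HSPD1 FPKM with DMSO and 0.436 with Indocin. HSPD1 and HSPE1 together made up 67.3% and 63.5% of the members' summed FPKM.

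HSPA9, the matrix HSP70 that pulls proteins through the import channel and folds them, stood at 137.7 FPKM with DMSO and 184.5 FPKM with Indocin (0.42, or 1.34 times the DMSO FPKM). Of the tested genes 4.29% had a higher ratio than HSPA9. TRAP1, an HSP90 family chaperone of the matrix, stood at 143.2 and 134.5 FPKM (-0.09). Their order crossed: TRAP1 lay above HSPA9 in the DMSO library and below it in the Indocin library.

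Among the proteases, LONP1, the ATP-dependent Lon protease that degrades oxidised and misfolded matrix proteins, stood at 69.5 FPKM with DMSO and 100.6 FPKM with Indocin (0.53, or 1.45 times the DMSO FPKM). Of the tested genes 2.63% had a higher ratio than LONP1. The peptidase CLPP stood at 94.6 and 91.7 FPKM (-0.05). Its unfoldase CLPX, which feeds it substrates, stood at 23.9 and 23.8 FPKM (-0.01). The ratio of CLPX to CLPP FPKM was 0.253 with DMSO and 0.259 with Indocin, so their mRNAs stood in nearly the same proportion. Protein was not measured. LONP1, below CLPP in the DMSO library (0.734 of its FPKM), was above it in the Indocin library (1.10).

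The 3 inner membrane proteases stood between 18.1 and 45.6 FPKM and were all within 1.2-fold as deposited. AFG3L2, the subunit of the m-AAA protease that also assembles with SPG7, stood at 45.6 FPKM with DMSO and 40.0 FPKM with Indocin (-0.18). YME1L1, the i-AAA protease, stood at 32.9 and 33.8 FPKM (0.04). OMA1, which cuts the fusion factor OPA1 and the stress relay protein DELE1 when the membrane potential fails, had the lowest level of the members, 18.1 and 21.0 FPKM (0.21). YME1L1 to OMA1 FPKM, the pair that shares OPA1 as a substrate, was 1.82 with DMSO and 1.60 with Indocin.

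**Figure D2:**
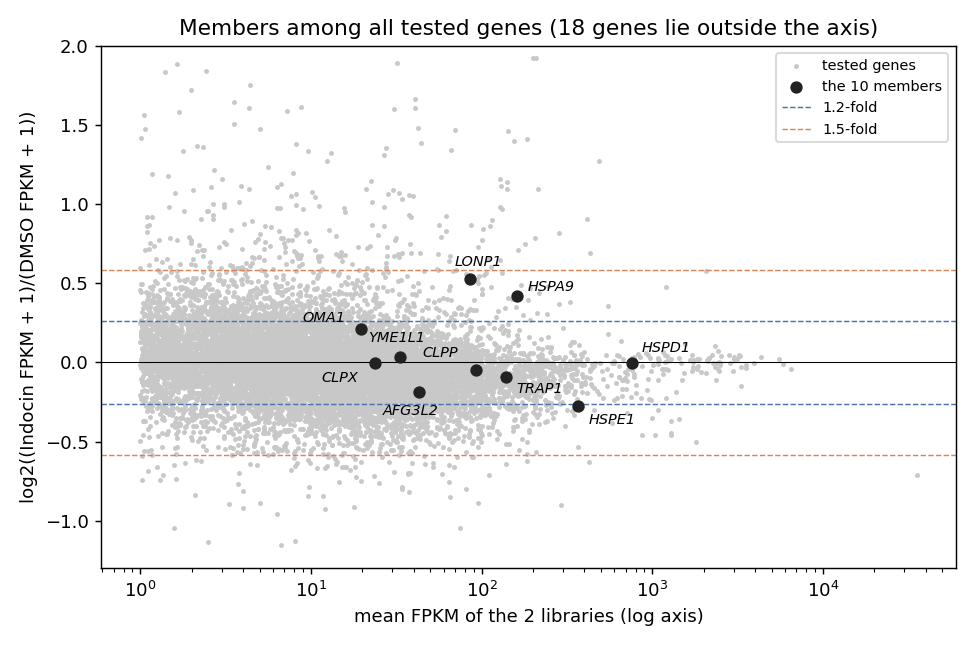
Log2 ratio of FPKM + 1 (Indocin over DMSO) against mean FPKM (log axis) for the tested genes (grey) and the 10 members (black, named), with dashed lines at 1.2-fold and 1.5-fold. LONP1 and HSPA9 lie between the lines above 0, HSPE1 lies just past the lower 1.2-fold line, and 18 tested genes fall outside the axis.

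The 6797 tested genes whose mean reached 10 FPKM include all members and had a median log2 ratio of -0.06, with 5th and 95th percentiles of -0.38 and 0.30. LONP1 and HSPA9 were above that range, and the other 8 members were within it.

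Signs near 0 depended on how the libraries were scaled. LONP1, HSPA9, OMA1 and YME1L1 had ratios above 0, and HSPE1 and AFG3L2 ratios below 0, as deposited and under 10 other settings (pseudocounts, filters and scalings). TRAP1 ranged from -0.09 to 0.00. CLPX (from -0.01 to 0.07) and CLPP (from -0.05 to 0.04) changed sign with the scaling. HSPD1 was at 0.00 as deposited (-0.0011 before rounding) and up to 0.08 with scaling. LONP1 ranged from 0.50 to 0.61 and passed 1.5-fold when both libraries were scaled to a common upper quartile (0.60) or sum (0.61), or with the median of genes of like expression subtracted (0.61). With BCYRN1, an abundant noncoding RNA, left out of the sum it was short of 1.5-fold (0.57). HSPE1 ranged from -0.27 to -0.19 and was short of 1.2-fold under every scaling. OMA1 (0.28 and 0.29) was past 1.2-fold after scaling to a common upper quartile or sum, but short of it (0.25) with BCYRN1 left out of the sum.

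**Figure D3:**
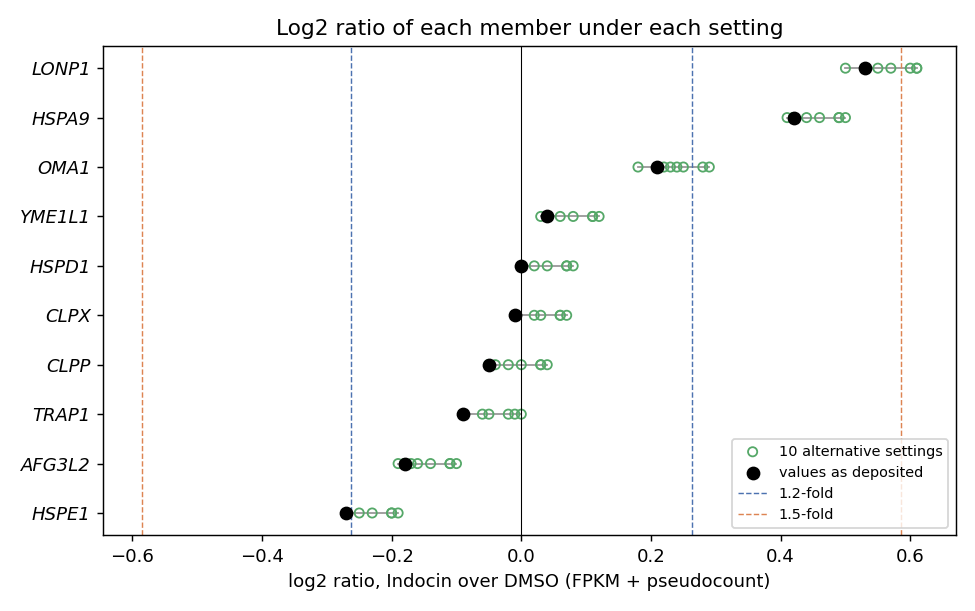
Log2 ratio (Indocin over DMSO) of each member with values as deposited (black) and under 10 alternative settings (green circles), with dashed lines at 1.2-fold and 1.5-fold. LONP1 (0.50 to 0.61) and HSPA9 (0.41 to 0.50) stay to the right of the 1.2-fold line. CLPX and CLPP straddle 0, and HSPD1 runs from 0.00 to 0.08.

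Ratios between partner genes within a library do not move with library scaling, and 12 pairs were compared in this way, with 1 more added after the values were seen. HSPA8, the main cytosolic HSP70, stood at 1446 FPKM with DMSO and 1119 FPKM with Indocin (-0.37). HSPA9 FPKM was 0.0952 of HSPA8 FPKM with DMSO and 0.165 with Indocin. Against HSPA5, the HSP70 of the endoplasmic reticulum (324.6 and 355 FPKM, 0.13), HSPA9 stood at 0.424 and 0.520. So HSPA9 was higher relative to the HSP70 of either other compartment. TRAP1 differed less from its cytosolic relative HSP90AB1 (993.7 and 881.8 FPKM, -0.17), at 0.144 and 0.153. HSP90AA1, the stress-inducible cytosolic HSP90, had a ratio of -0.32, and HSP90B1, the ER form, of 0.01. HSPD1 stood at 2.53 and 2.92 times TCP1, a subunit of the cytosolic chaperonin (302.3 and 261.5 FPKM, -0.21).

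The partners of HSPA9 did not follow it as a set. GRPEL1 and GRPEL2 are nucleotide exchange factors that reset HSPA9. GRPEL2 stood at 16.4 FPKM with DMSO and 28.0 FPKM with Indocin (0.73), the only gene of its list past 1.5-fold. Among all tested genes 2.19% were 1.5-fold or more higher. GRPEL1 stood at 84.9 and 70.0 FPKM (-0.27), past 1.2-fold on the lower side as deposited and under no library scaling to a common quartile or sum. GRPEL2 FPKM was 0.194 of GRPEL1 FPKM with DMSO and 0.400 with Indocin, the pair added after the values were seen. GRPEL1 to HSPA9 was 0.616 and 0.379, and DNAJA3, a J-domain cochaperone (74.8 and 78.8 FPKM, 0.08), stood at 0.543 and 0.427 of HSPA9. DNAJC19, a J-protein of the import motor, had a ratio of 0.21, and DNLZ, which keeps HSPA9 soluble, of -0.13. Of 9 listed partners 8 were tested (DNAJC15 was listed at 0 in both libraries), with a median of -0.01.

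**Figure D4:**
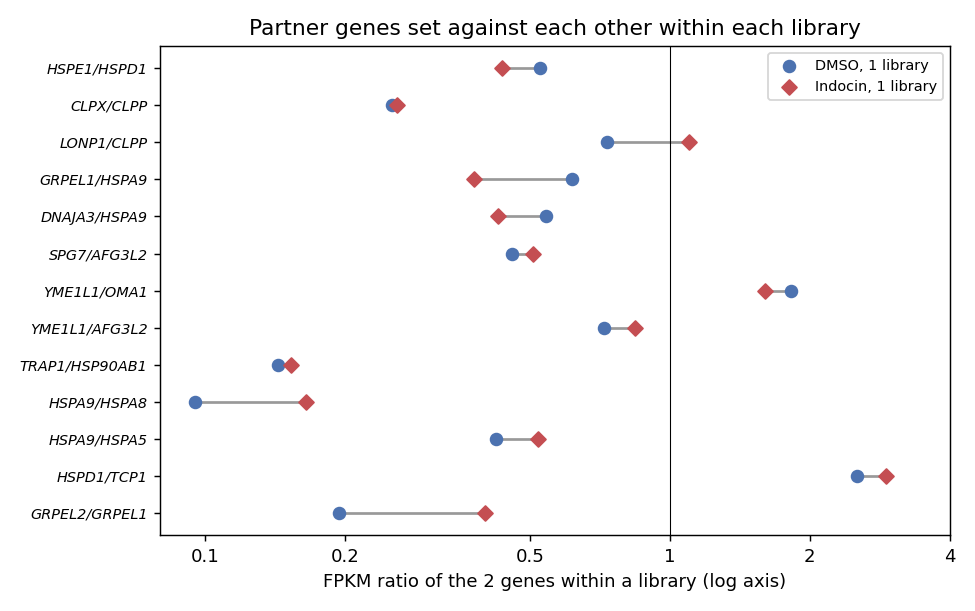
FPKM ratio of 13 pairs of partner genes within the DMSO library (circles) and within the Indocin library (diamonds), on a log axis. HSPA9/HSPA8 (0.0952 and 0.165), LONP1/CLPP (0.734 and 1.10) and GRPEL2/GRPEL1 (0.194 and 0.400) lie further right in the Indocin library, and GRPEL1/HSPA9 (0.616 and 0.379) further left.

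Other mitochondrial proteases, a list that includes the processing peptidases that remove import signals, held no gene past 1.2-fold among 13 tested, and the median was -0.02. Among all tested genes 9.91% were as much higher and 11.7% as much lower. SPG7, the partner of AFG3L2, stood at 20.9 FPKM with DMSO and 20.3 FPKM with Indocin (-0.04), so SPG7 to AFG3L2 was 0.459 and 0.507. The highest ratios were those of LACTB (0.19), a filament-forming protease of the intermembrane space, and PMPCB (0.10), the catalytic subunit of the matrix processing peptidase. The lowest were IMMP1L (-0.21), an inner membrane peptidase, and PMPCA (-0.19), the other subunit of the processing peptidase.

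Scaffolds and regulators of these proteases included GHITM, an inner membrane protein that binds AFG3L2, at 184 FPKM with DMSO and 250.4 FPKM with Indocin (0.44). PGAM5, a phosphatase that is itself cut by inner membrane proteases, stood at 84.3 and 63.5 FPKM (-0.40). Each was past 1.2-fold, and the other 5 of 7 were not, among them the prohibitin PHB (-0.20) and LACE1 (0.17), an ATPase of the inner membrane. Among all tested genes 9.91% were at least 1.2-fold higher and 11.7% as much lower.

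In the list of protease substrates 1 of 9 genes was at least 1.2-fold higher, the mitophagy kinase PINK1 (6.19 and 7.78 FPKM, 0.29). STARD7 (93.0 and 74.8 FPKM, -0.31), a lipid carrier cut by PARL, was as much lower. Among all tested genes 9.91% were as much higher and 11.7% as much lower. After scaling to a common upper quartile or sum 3 of the list were higher and 0 lower. Of tested genes 14.9% and 15.4% were then as much higher. With BCYRN1 left out of the sum the counts were 1 and 1. ALAS1, the heme synthesis enzyme degraded by CLPX-CLPP and LONP1, had a ratio of 0.22, and PRELID1, a short-lived lipid carrier, of -0.16. The median was 0.05.

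Protein import genes bring in the substrates of HSPA9 and HSPD1. Of 23 tested, 4 had ratios above 0 and 19 below 0 as deposited. Ratios above 0 were found for 44.8% of all tested genes and 36.1% of those with a mean of at least 10 FPKM. None of the 23 was past 1.5-fold, 4 were at least 1.2-fold lower and 1 higher, and the median was -0.17. Among all tested genes 11.7% were as much lower and 9.91% as much higher. Scaling to a common upper quartile or sum left 2 at least 1.2-fold lower (6.93% and 6.68% of tested genes). With BCYRN1 left out of the sum 3 were as much lower (8.76%). TIMM8A, a small carrier chaperone (43.0 and 31.6 FPKM, -0.43), and TOMM40, the outer membrane pore (86.8 and 65.4 FPKM, -0.40), were the lowest. TIMM44, which tethers HSPA9 to the import channel, stood at 41.6 FPKM with DMSO and 55.1 FPKM with Indocin (0.40), the highest of the list. ROMO1, next highest, had a ratio of 0.03.

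Other nuclear genes of mitochondria served for comparison. The median was -0.13 over 77 mitochondrial ribosomal protein genes, of which none was at least 1.2-fold higher and 9 were as much lower. Among all tested genes 9.91% were as much higher and 11.7% as much lower. The count of lower genes was 2 after scaling to a common upper quartile or sum (6.93% and 6.68% of tested genes). It was 5 with BCYRN1 left out of the sum (8.76%) and 7 after centring on the median of all tested genes (9.59%). None of these counts was above the share of tested genes. Over 78 subunits of the respiratory chain and ATP synthase the median was -0.04, with 25 ratios above 0 and 53 below (59 and 19 with the same sum). Of these, 1 was at least 1.2-fold higher, COX7A2L (0.40), and 1 as much lower, ATP5G1 (-0.32). The counts were 2 and 0 after scaling to a common upper quartile or sum. Of tested genes 14.9% and 15.4% were then as much higher, and 6.93% and 6.68% as much lower. With BCYRN1 left out of the sum the counts were 2 and 1, against 12.5% and 8.76% of tested genes. LONP1 (0.53) and HSPA9 (0.42) lay above the highest ratio of both groups, 0.05 and 0.40. The 8 cytosolic chaperonin genes had a median of -0.19, and all 8 had ratios below 0 as deposited (7 below and 1 above with the same sum). With the same sum the medians of these 3 groups were -0.05, 0.04 and -0.11.

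**Figure D5:**
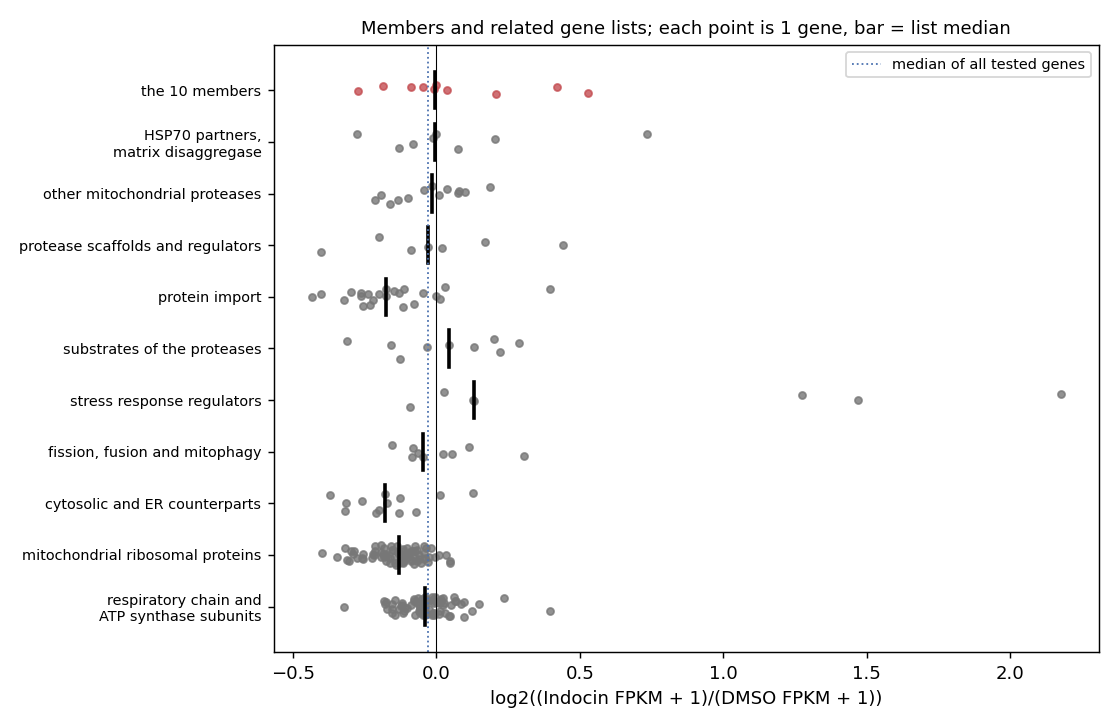
Log2 ratio of FPKM + 1 (Indocin over DMSO) for each tested gene of the members (red) and of related lists (grey), with black bars at list medians and a dotted line at the median of all tested genes (-0.03). The members spread from -0.27 to 0.53, and the regulators DDIT3 (2.18), CEBPB (1.47) and ATF4 (1.28) lie furthest right.

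Transcription factors of the mitochondrial unfolded protein response in mammals, in which matrix chaperones and proteases are the classical targets, include ATF4, ATF5 and CHOP (DDIT3). ATF4 stood at 283.9 FPKM with DMSO and 689 FPKM with Indocin (1.28). DDIT3 stood at 22.5 and 105.4 FPKM (2.18), and CEBPB, its dimer partner, at 36.4 and 102.7 FPKM (1.47). ATF5 (29.9 and 32.7 FPKM, 0.13), the stress kinase EIF2AK1 (50.4 and 55.3 FPKM, 0.13), the heat shock factor HSF1 (60.7 and 56.8 FPKM, -0.09) and UBL5 (0.03) were within 1.2-fold. Of 7 regulators 3 were thus past 1.5-fold, all on the higher side, where 2.19% of all tested genes were as much higher. Beside these 3, the median of the 10 members was 0.00, with ratios from -0.27 to 0.53. The part of these regulators in the members' values was not tested, nor was whether a mitochondrial stress response took place.

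Genes that share sequence or place with the members can share reads with them. GENCODE 29 (GRCh38) names 17 pseudogenes of HSPD1 and 26 of HSPE1 by symbol, none of them among the symbols of the tables, so how reads of these copies were assigned is not known. The read-through gene HSPE1-MOB4 was listed at 0.300 FPKM with DMSO and 0.260 FPKM with Indocin. On the opposite strand, TUBB6 (38.8 and 30.7 FPKM, -0.33) overlaps AFG3L2, MASTL (10.9 and 8.82 FPKM, -0.27) overlaps YME1L1 and DNASE1 (4.14 and 4.26 FPKM, 0.03) overlaps TRAP1. RPL36 (2355 and 2312 FPKM, -0.03) overlaps LONP1 by 43 bases, and parts of HSPD1 and HSPE1 overlap each other. DAB1, on the same strand as OMA1 and overlapping it, was listed at 0.0914 and 0.165 FPKM. The strand setting of the counting was not given in the sources used here, so reads of such pairs cannot be told apart.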

How the data were processed

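The values were FPKM per gene symbol with a status, deposited by the authors in 1 table per library, per the file headers. Libraries were strand-specific mRNA libraries (KAPA kit) of TRIzol-isolated RNA, per the labels' protocols. Per the submitters' processing notes, the tools were bcl2fastq, TopHat, Cufflinks, StringTie and Cuffnorm, with builds GRCh37 and hg19. The sources used here do not give tool versions, gene annotation or strandedness of counting.

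From these FPKM, log2((Indocin + 1)/(DMSO + 1)) was computed with Python 3.11.15 and pandas 2.3.3. Tested genes had a mean of at least 1 FPKM, and 2070 symbols of short RNA genes were left out. Members were counted at 1.2-fold and 1.5-fold. With 1 library per group no test was run, and the calculation was tested on simulated data. Members, lists and folds were chosen with earlier results of these data known. In each list the genes named were those past 1.5-fold, the 2 highest and 2 lowest ratios, and genes fixed as regulators, counterparts or partners. The 3 comparison classes (mitochondrial ribosomal proteins, respiratory chain and ATP synthase subunits, cytosolic chaperonin) served for counts and medians, and COX7A2L and ATP5G1 were named as the genes behind counts of 1. These, genes named as exceptions, the GRPEL2 to GRPEL1 pair and overlapping genes were chosen after their values were seen. Protein motifs planned for the members were not searched. Alternatives were other pseudocounts (0.1 and 5 FPKM), filters (none and 5 FPKM) and scalings. Promoter sequences came from RefSeq on GRCh38.p14.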

Additional observations from a re-analysis of the deposited data

How the results depend on the processing

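With 1 library per group, depth unknown and no replicate spread, a value was taken as moved when its second decimal changed. The median of the members, 0.00 as deposited, was 0.08 with the libraries scaled to a common sum that left out short RNA genes, 0.04 with BCYRN1 also left out of that sum, 0.07 with the same upper quartile, 0.06 after subtraction of the median in 20 bins of mean expression and 0.02 after centring on the median of all tested genes. It stayed at 0.00 under the other 5 settings. The count of members at least 1.2-fold lower, 1 as deposited (HSPE1), was 0 under all 5 of those rescalings. The share of tested genes as much lower also fell, from 11.7% to between 6.68% and 9.82%. The count at least 1.5-fold higher, 0 as deposited, was 1 (LONP1) with the same sum, the same upper quartile or the expression bins. With BCYRN1 left out of the sum it was 0. For tested genes that share was 2.19% as deposited and 2.71%, 2.69%, 2.27% and 2.52% under these settings, in the same order. The count at least 1.2-fold higher was 2 or 3, and that at least 1.5-fold lower 0, under all settings. Tested genes at least 1.2-fold higher made up 9.91% as deposited. They made up 15.4% with the same sum and 14.9% with the same upper quartile, where the count was 3. Rescaling moved the median of all tested genes by at most 0.07. No paired analysis was possible because each group had 1 library. The pseudocount had little weight at the members' levels.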

Other observations

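Genes of mitochondrial fission, fusion and mitophagy, processes that OMA1 and YME1L1 reach through OPA1, lay near the median of all genes. Of 11 listed, 9 were tested, and none was past 1.5-fold. BCL2L13, an outer membrane mitophagy receptor, stood at 18.6 FPKM with DMSO and 23.2 FPKM with Indocin (0.31) and was the only gene past 1.2-fold. Among all tested genes 9.91% were at least 1.2-fold higher. The mitophagy receptor BNIP3L had a ratio of 0.12, the fusion factor MFN2 of -0.15 and the fission factor DNM1L of -0.08, and the median was -0.05. OPA1 itself stood at 23.2 and 22.7 FPKM (-0.03), and DELE1, listed under its older symbol KIAA0141, at 8.89 and 10.4 FPKM (0.20). PARK2, the ubiquitin ligase that acts with PINK1, was listed at 0.0406 and 0.0505 FPKM.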
